A study of Mus musculus with 12 samples.

Results

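Fibroblast growth factor (FGF) ligands, their receptors and the genes that FGF signalling induces as feedback were followed across fetal mouse gonads labelled E12.5. The members were 37 genes, fixed by name: the Fgf ligand and homologue genes, the 4 receptor genes Fgfr1 to Fgfr4, the receptor-like gene Fgfrl1, 4 Sprouty genes, Spred1, Spred2, Dusp6 and the ETS factor genes Etv1, Etv4 and Etv5. A member was read from a transcript cluster of the array that is annotated with that symbol alone. This gave 34 of the 37 members, each on 1 cluster, out of 65956 clusters and 30176 symbols. Fgf12, Fgf20 and Etv1 were not analysed here because their clusters also carry another symbol.

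The samples were 12 gonad samples from C57BL/6 embryos, 4 per group. Control XY were testes with Amh and Inhbb intact, dKO XY were testes with both genes disrupted in all cells (Amh-/-; Inhbb-/-), and control XX were ovaries with both genes intact. Embryos came from crosses of doubly heterozygous parents, and the gonads had been freed of the mesonephros and frozen. Amh encodes anti-Müllerian hormone and Inhbb the subunit of activin B, both secreted by Sertoli cells. Values are log2 intensities of Affymetrix Clariom D mouse arrays, so a difference of 1 is 2-fold. The study describes the samples as biologically independent, and the labels do not say which animal each came from.

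FGFs are secreted ligands that bind receptor tyrosine kinases together with heparan sulphate and switch on the RAS, RAF, MEK and ERK cascade. The cascade induces its own brakes: Sprouty and Spred proteins act on RAS and RAF, and Dusp6 is a phosphatase that removes phosphate from ERK. The ETS factors Etv4 and Etv5 are transcription factors commonly induced by FGF signalling. In the mouse XY gonad, FGF9 acts mainly through FGFR2 to sustain Sox9 and Sertoli cell differentiation and to hold down Wnt4.

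Dusp6 and Etv5, feedback and target genes that differed most between testis and ovary together with Spry4, are shown by the 250 bases before their start sites, because ETS factors bind DNA around a GGAA core. The windows are from RefSeq (GRCm38.p6) and read 5′ to 3′ on the strand of the gene, with GGAA and its reverse TTCC in capitals. Etv5 has a pair of annotated starts, and the window that begins before the downstream start lies within the gene.
Dusp6 (chr10:99262981-99263230, plus strand): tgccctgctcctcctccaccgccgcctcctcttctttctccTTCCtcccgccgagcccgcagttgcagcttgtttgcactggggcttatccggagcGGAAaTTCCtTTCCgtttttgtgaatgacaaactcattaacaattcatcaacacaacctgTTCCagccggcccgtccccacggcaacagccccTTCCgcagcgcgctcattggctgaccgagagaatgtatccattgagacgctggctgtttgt
Etv5 (chr16:22438369-22438618, minus strand): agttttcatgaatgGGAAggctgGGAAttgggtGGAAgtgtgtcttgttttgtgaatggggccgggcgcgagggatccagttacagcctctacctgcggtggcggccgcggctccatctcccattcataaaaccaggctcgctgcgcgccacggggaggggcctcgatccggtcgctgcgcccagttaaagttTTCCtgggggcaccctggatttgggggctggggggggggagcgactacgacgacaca
Etv5 (chr16:22439571-22439820, minus strand): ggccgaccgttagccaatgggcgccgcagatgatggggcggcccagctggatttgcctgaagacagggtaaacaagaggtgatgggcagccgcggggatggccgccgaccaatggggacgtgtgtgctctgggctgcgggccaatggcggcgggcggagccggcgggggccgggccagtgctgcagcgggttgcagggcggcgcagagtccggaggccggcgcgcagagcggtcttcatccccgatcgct
The Dusp6 window holds 6 cores, a number reached by 8.69% of 32851 promoter windows of the same length. The Etv5 windows hold 4 cores (33.4% of windows hold as many) and 0 cores. At least 1 core stood in 93.4% of all windows and the median was 3, so the cores are a description of the sequence, not of binding. Of the 34 measured members, 25 had a promoter entry.

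All 12 arrays were fitted together with limma, and a gene passed the test when its p, adjusted by Benjamini-Hochberg over all clusters, was under 0.05. Errors of differences are standard errors. Amh read 10.56 to 13.38 in control XY, 5.59 to 5.90 in dKO XY and 5.14 to 5.52 in control XX, and Inhbb read 7.10 to 8.02, 6.69 to 6.99 and 6.49 to 6.97. Arrays of a group correlated at 0.974 to 0.992. Signal contrast (the level of the 1324 positive control probe sets less that of the 5222 negative ones, both averaged per array) was 3.70 to 4.44 in control XY, 2.48 to 3.83 in dKO XY and 3.21 to 3.65 in control XX. It was lowest in dKO XY 3 (2.48) and dKO XY 1 (2.83). The differences were −0.957 for dKO XY against control XY (p = 0.0571) and −0.660 for control XX against control XY (p = 0.0286) by a two-sided exact permutation test, whose smallest possible p is 0.0286, and both had an adjusted p of 0.0857. Over all clusters the median difference from control XY was 0.17 for dKO XY and 0.12 for control XX. Only Spred1 exceeded the 95th percentile of the negative controls on all 4 arrays of a group, whereas 30 members exceeded all 23 background probe sets on at least 4 arrays, 17 of them on all 12.

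The testis and the ovary differed in ligand, receptor and feedback. Compared with control XY gonads, control XX gonads were lower in Fgf9 (by 2.40-fold), Fgf18 (1.48-fold), Spry4 (3.30-fold), Dusp6 (3.94-fold) and Etv5 (2.80-fold) and higher in Fgfr2 (2.26-fold). These were the 6 of 34 members that passed the test, 1 higher and 5 lower, against 1.95% of all clusters (0.608% higher and 1.34% lower). Of these 6, 5 also reached 2-fold, as did 0.984% of all clusters. The median over the 34 members was −0.02, beside 0.12 over all clusters. The groups did not overlap for 5 members that were higher and 9 that were lower in control XX, against 7.98% and 5.76% of all clusters.

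Fgf9 read 8.57, 8.98, 8.54 and 8.62 in control XY 1 to 4, 8.39, 8.77, 8.17 and 8.46 in dKO XY 1 to 4, and 7.59, 7.32, 7.35 and 7.39 in control XX 1 to 4. Every control XX array lay below every XY array, and both XY groups overlapped. Fgf9 fell in the ovary by 1.27 on the log2 scale (−1.27 ± 0.15, n = 4 per group, limma adjusted p = 0.000619). Fgf16, the other measured ligand of its family, differed by −0.02 (adjusted p = 0.922).

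Fgfr2 read 7.46, 7.50, 7.84 and 7.63 in control XY, 7.45, 7.81, 7.39 and 7.56 in dKO XY, and 8.38, 8.93, 8.61 and 9.20 in control XX. The ovary arrays stood above all 8 XY arrays, with a difference of 1.18 ± 0.17 from control XY gonads (adjusted p = 0.00375). The ligand therefore read lower and its main gonadal receptor higher in the ovary. The other receptor genes did not pass: Fgfr1 differed by −0.37 (adjusted p = 0.169), Fgfr3 by 0.17 (adjusted p = 0.348), Fgfr4 by 0.27 (adjusted p = 0.22) and Fgfrl1, whose product lacks the kinase, by −0.14 (adjusted p = 0.398).

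Fgf18, a ligand of the FGF8 family, read 8.02, 7.83, 8.05 and 7.87 in control XY, 7.46, 7.77, 7.62 and 7.59 in dKO XY, and 7.41, 7.31, 7.46 and 7.34 in control XX. The dKO XY arrays lay between the control groups, overlapping neither, although dKO XY 1 and control XX 3 both read 7.46. Control XX gonads were lower than control XY gonads (−0.56 ± 0.10, adjusted p = 0.0161), a call lost without control XY 3 (adjusted p = 0.0613). Its relatives Fgf8 (0.24) and Fgf17 (0.31) did not pass (adjusted p = 0.324 and 0.32).

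Spry4, an inhibitor of receptor tyrosine kinase signalling, read 7.20, 7.57, 8.09 and 7.81 in control XY, 6.96, 7.18, 6.72 and 6.80 in dKO XY, and 5.77, 6.10, 5.83 and 6.08 in control XX. No 2 groups overlapped, and the order was control XY, dKO XY, control XX. Spry4 was lower in the ovary than in the control testis (−1.72 ± 0.18, adjusted p = 0.000302).

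Dusp6 read 9.18, 9.51, 9.95 and 8.86 in control XY, 8.07, 9.23, 8.07 and 8.30 in dKO XY, and 7.79, 6.96, 7.21 and 7.61 in control XX. The ovary arrays were below all XY arrays, and dKO XY 2 was the 1 dKO XY array within the control XY range. The difference between control XX and control XY gonads was the largest among the 34 members (−1.98 ± 0.29, adjusted p = 0.00407).

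Etv5 read 9.15, 9.29, 10.15 and 9.78 in control XY, 9.16, 9.86, 9.14 and 9.08 in dKO XY, and 7.89, 7.98, 7.87 and 8.69 in control XX. Only the ovary arrays stood apart, at −1.48 ± 0.26 from control XY gonads (adjusted p = 0.011). Etv4, its close relative, did not pass (−0.06, adjusted p = 0.773).

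**Figure D1:**
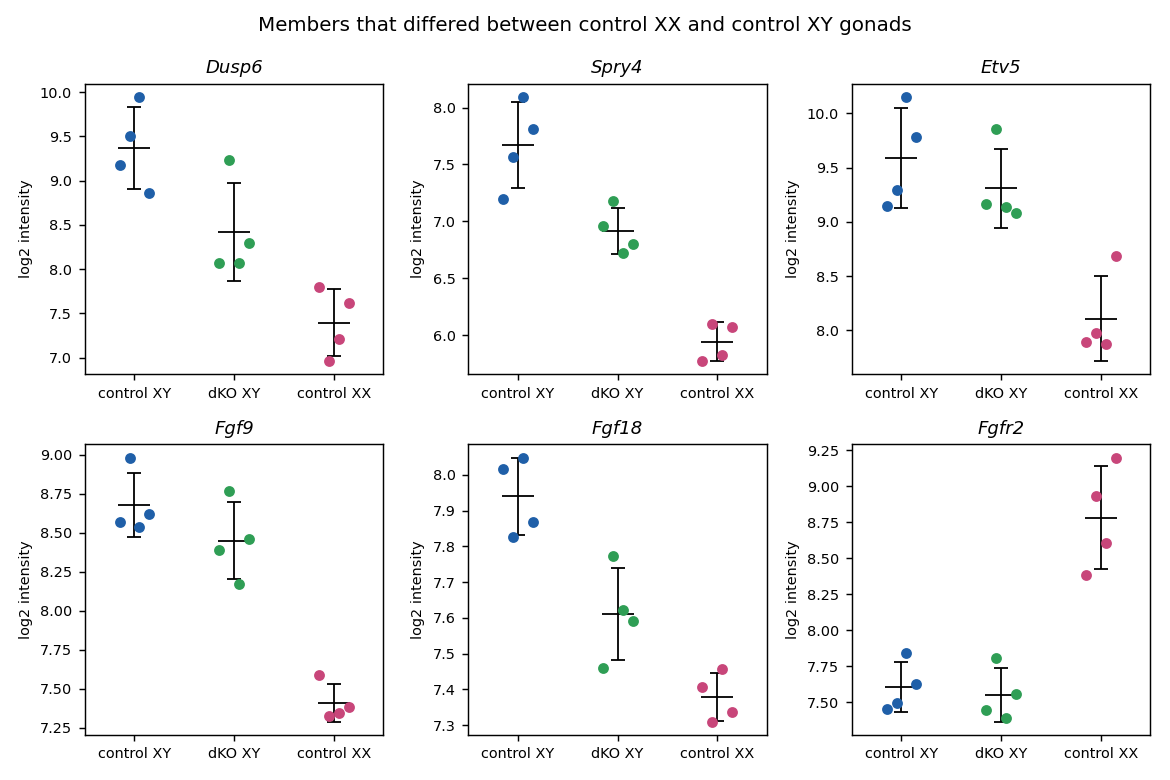
Log2 intensity of the 6 members that passed the test between control XX and control XY gonads, by group; points are arrays, horizontal lines are means and bars are SDs (n = 4). The control XX arrays do not overlap the control XY arrays in any panel, and the dKO XY mean of Fgf9 (8.45) and Fgfr2 (7.55) lies near that of control XY (8.68 and 7.60).

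The remaining brakes among the members pointed the same way without passing. All 7 Sprouty, Spred and Dusp6 genes among the members were lower in control XX gonads, with a median of −1.01. Of these only Spry4 and Dusp6 passed. Spred3, which is not a member, was at 0.21 (limma adjusted p = 0.398). Spred1, which works with neurofibromin to restrain RAS, was at −1.01 (adjusted p = 0.0553) and Spry2 at −1.01 (adjusted p = 0.0656), and for both the control XX arrays lay below all control XY arrays. Fgf9, Fgfr2, Spry4, Dusp6 and Etv5 kept their calls whichever of the 12 arrays was left out. With signal contrast as a covariate, Fgf9, Fgfr2, Spry4 and Dusp6 passed, while Etv5 (adjusted p = 0.169) and Fgf18 (adjusted p = 0.138) did not.

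These are whole gonads, so fewer cells of a type and less RNA per cell cannot be told apart. Of the 6 Sertoli markers, 5 fell in control XX gonads, and their mean level was 9.87 to 10.67 in control XY, 8.98 to 9.56 in dKO XY and 6.54 to 6.95 in control XX. Of the 6 pre-granulosa markers, 5 rose, with mean levels of 6.38 to 6.62, 6.68 to 6.83 and 7.62 to 8.23. The 3 measured interstitial markers were at 10.61 to 11.32, 8.32 to 9.68 and 8.58 to 9.57, and 2 of them fell in control XX gonads. The part of these cell types in the differences of the members was not tested.

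The question for dKO XY gonads was whether loss of AMH and activin B shifts FGF genes from the testis level. Fgf9, Fgfr2 and Etv5 did not pass the test against control XY gonads, whereas 4 feedback genes, Spry2, Spry4, Spred1 and Dusp6, were lower by 1.69- to 1.99-fold. Fgf2, Fgf18 and Fgfr1 were lower by 1.26- to 1.36-fold, and Fgf7, Fgf21 and Fgfr4 were higher by 1.36- to 1.54-fold. In all, 10 of 34 members passed, 3 higher and 7 lower, while 26.5% of all clusters passed (16.7% higher and 9.8% lower), so the count as such is close to the background. The median over the 34 members was 0.09, beside 0.17 over all clusters. Groups did not overlap for 4 members that were higher and 5 that were lower in dKO XY, against 16.2% and 8.24% of all clusters. No member reached 2-fold, which 4.28% of all clusters did.

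For Fgf9 the difference was −0.23 with a 95% interval of −0.54 to 0.09 (adjusted p = 0.224), and it was 0.09 after quantile normalization. Fgfr2 differed by −0.05 (−0.43 to 0.32, adjusted p = 0.824). The Etv5 difference was −0.28 (−0.84 to 0.28, adjusted p = 0.391), and quantile normalization made it 0.19. None of these 3 intervals reaches the difference that separated control XX from control XY gonads.

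Spred1 read 11.58, 11.73, 11.52 and 11.45 in control XY, 10.59, 11.11, 9.86 and 10.75 in dKO XY, and 10.40, 10.94, 10.10 and 10.81 in control XX. All dKO XY arrays lay below all control XY arrays and within or near the range of the ovary. Its difference from control XY gonads was the largest decrease among the members (−0.99 ± 0.24, adjusted p = 0.024).

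Spry2 read 9.25, 8.72, 9.10 and 9.0 in control XY, 7.92, 8.94, 7.67 and 7.91 in dKO XY, and 7.94, 8.38, 7.56 and 8.14 in control XX. Here 3 dKO XY arrays were at ovary levels, and dKO XY 2 was at the testis level. The difference was −0.90 ± 0.26 (adjusted p = 0.0305).

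The values of Dusp6 and Spry4 given above put dKO XY gonads at 8.42 and 6.91, against 9.37 and 7.67 in control XY and 7.40 and 5.94 in control XX gonads. Dusp6 was lower in dKO XY than in control XY gonads by 0.96 (−0.96 ± 0.29, adjusted p = 0.0364) and Spry4 by 0.75 (−0.75 ± 0.18, adjusted p = 0.023). On the way from control XY to control XX, the dKO XY mean stood at 48.4% for Dusp6, 43.7% for Spry4, 89.2% for Spry2 and 98.6% for Spred1, but at 18.1% for Fgf9, 19.1% for Etv5 and −4.46% for Fgfr2. With signal contrast as a covariate these positions were 9.76% for Dusp6, 27.3% for Spry4, 41.3% for Spry2, 51.5% for Spred1, −2.40% for Fgf9, −25.3% for Etv5 and 24.4% for Fgfr2. After quantile normalization Spred1 moved to 56.3%. Both distances behind a position start from the same 4 control XY arrays, so they are not independent, and no interval was computed for them. For Spry2 and Spred1 the difference between control XX and control XY itself did not pass (limma adjusted p = 0.0656 and 0.0553). The brakes Spry1 (−0.29, adjusted p = 0.0529), Spred2 (−0.55, adjusted p = 0.0781) and Spry3 (−0.24, adjusted p = 0.188) did not pass. All 7 brakes among the members were below 0, with a median of −0.75, though Spred2 was at 0.13 with signal contrast as a covariate. Spred3, a Spred gene outside the members, went the other way and passed as higher (0.44, limma adjusted p = 0.0498).

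Fgf2, a ligand that also acts on germ and stem cells in culture, read 7.07, 7.39, 7.27 and 7.19 in control XY, 6.79, 6.75, 6.73 and 6.88 in dKO XY, and 6.65, 7.10, 6.83 and 6.88 in control XX. The dKO XY arrays were below every control XY array (−0.44 ± 0.12, adjusted p = 0.0269), and the ovary arrays overlapped both. Fgf18, with its values given above, was lower by 0.33 (−0.33 ± 0.10, adjusted p = 0.04). Fgfr1 read 8.45, 8.37, 8.65 and 8.46 in control XY, 7.94, 8.37, 7.83 and 7.99 in dKO XY, and 8.08, 8.13, 7.88 and 8.33 in control XX. Its dKO XY 2 array reached the control XY range (−0.45 ± 0.14, adjusted p = 0.0373).

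Fgf7, a ligand of the epithelial form of FGFR2, read 5.06, 5.21, 5.21 and 4.94 in control XY, 5.56, 5.36, 6.07 and 5.58 in dKO XY, and 5.31, 5.21, 5.45 and 5.18 in control XX. It was higher in all dKO XY arrays, most of all in dKO XY 3 (0.54 ± 0.15, adjusted p = 0.0284). Fgf7 exceeded all background probe sets on only 5 of 12 arrays. Each control XY value lay below the highest background probe set of its array (5.23 to 5.53), so the control level is that of background. Fgfr4 read 5.84, 5.78, 5.60 and 5.75 in control XY, 6.27, 5.89, 6.35 and 6.21 in dKO XY, and 6.0, 6.02, 6.14 and 5.89 in control XX. It was higher in dKO XY without overlap (0.44 ± 0.12, adjusted p = 0.0285). Fgf21, an endocrine FGF of metabolism, read 5.94, 5.88, 5.97 and 5.79 in control XY, 6.76, 5.97, 6.94 and 6.41 in dKO XY, and 6.10, 6.03, 6.80 and 6.13 in control XX. Among dKO XY arrays it was highest in dKO XY 1 and 3, control XX 3 read as high, and dKO XY 2 lay at the control XY level (0.62 ± 0.21, adjusted p = 0.0476). The 3 genes that rose had group means of 5.10 to 6.52, and dKO XY 1 and 3 are the arrays of lowest signal contrast.

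**Figure D2:**
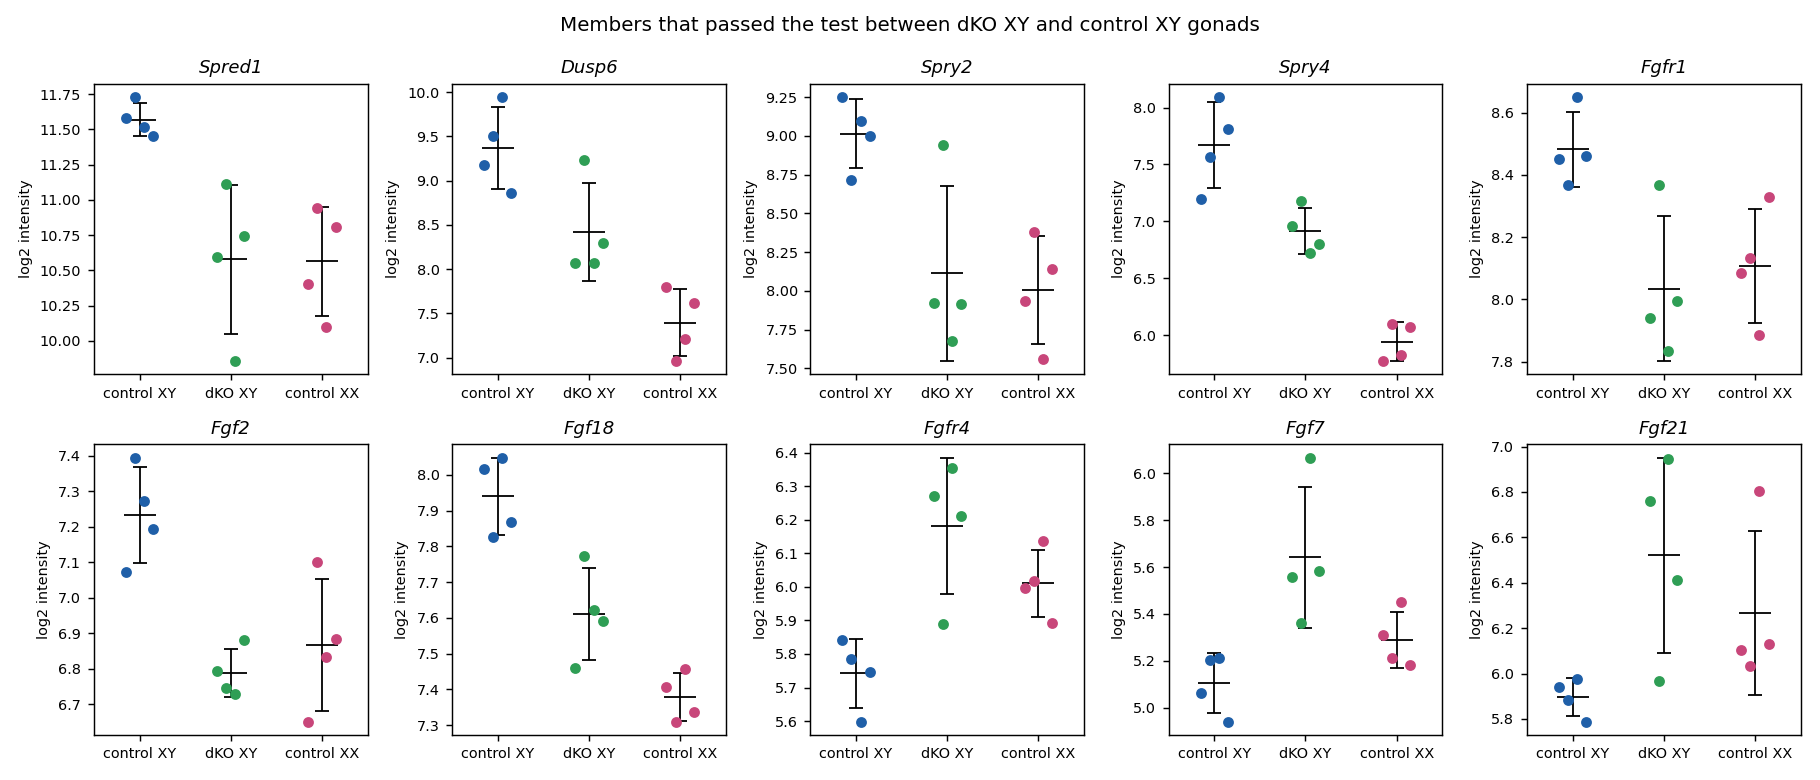
Log2 intensity of the 10 members that passed the test between dKO XY and control XY gonads; points are arrays, horizontal lines are means and bars are SDs (n = 4). In the panel of Spry2 the dKO XY 2 array (8.94) stands with control XY, and the mean of Spred1 is 10.58 for dKO XY and 10.56 for control XX.

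The calls against control XY were lost in part or whole when most of the single XY arrays were left out. None of the 34 members passed without control XY 3, dKO XY 1 or dKO XY 3, 1 passed without control XY 2 or control XY 4, 4 without dKO XY 4 and 16 without dKO XY 2. At an unadjusted p under 0.05 there were 17 of 34 members on all arrays, beside 30391 of 65956 clusters, so this count too is close to the background. Without control XY 3, dKO XY 1 and dKO XY 3 there were 15, 14 and 13 members. The matching counts over all clusters are not given here for those 3 fits. With signal contrast as a covariate no member passed, and 0 had an unadjusted p under 0.05. Spred1 then differed by −0.26, Spry2 by −0.22, Dusp6 by −0.14 and Spry4 by −0.41. After quantile normalization Fgf2 (−0.54, adjusted p = 0.0496), Spry4 (−0.77, adjusted p = 0.0491) and Spry1 (−0.53, adjusted p = 0.0481) passed. Interstitial markers fell with these genes: all 3 measured ones passed, Tcf21 (−2.58), Wnt5a (−1.64) and Nr2f2 (−1.49). Of 6 endothelial markers 3 fell, with a mean level of 8.57 to 9.07 in control XY, 7.78 to 8.53 in dKO XY and 7.90 to 8.45 in control XX. Of 4 measured fetal Leydig markers Cyp17a1 (−2.39) and Hsd3b1 (−1.95) fell, all 4 lay below control XY on every dKO XY array, and the mean levels were 7.82 to 9.73, 6.70 to 7.19 and 6.49 to 7.67. Of 6 Sertoli markers Ptgds (−2.62) and Cst9 (−1.87) fell, while Sox9 was at −0.06 (adjusted p = 0.859). Of 6 macrophage markers 3 rose, led by C1qb (0.61), with mean levels of 6.17 to 6.48, 6.56 to 6.87 and 6.57 to 6.85. Of 5 mesonephric tubule and duct markers 3 rose, led by Calb1 (1.22), with mean levels of 6.07 to 6.24, 6.49 to 6.72 and 6.46 to 6.65. Of 6 pre-granulosa markers Runx1 rose (0.63, adjusted p = 0.0272) and 5 did not pass. None of 6 germ cell markers passed (median −0.62), and of 2 measured erythroid markers Alas2 fell (−0.56). Of all clusters 16.7% passed as higher and 9.8% as lower in this comparison. The part of these cells in the differences was not tested.

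**Figure D3:**
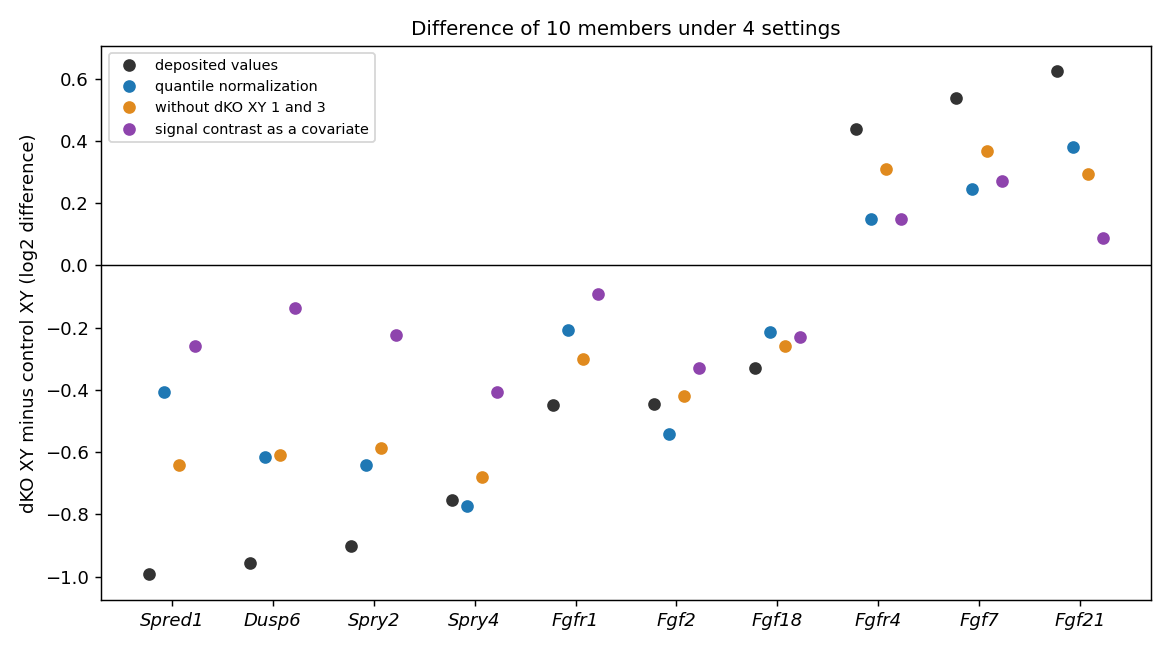
Log2 difference between dKO XY and control XY gonads for the 10 members that passed, on the deposited values, after quantile normalization, without dKO XY 1 and 3, and with signal contrast as a covariate. Every point keeps its sign, and with the covariate Dusp6 moves from −0.96 to −0.14 and Spred1 from −0.99 to −0.26.

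Directly compared, dKO XY and control XX gonads differed in the ligand Fgf9 and the receptor Fgfr2. Fgf9 was higher in dKO XY by 1.04 ± 0.15, or 2.05-fold (adjusted p = 0.0117), and Fgfr2 was lower by 1.23 (−1.23 ± 0.17, 2.34-fold, adjusted p = 0.012). These were the 2 of 34 members that passed, 1 in each direction, against 0.215% of all clusters (0.0895% higher and 0.126% lower), and both reached 2-fold, as did 0.164% of all clusters. The median over the members was 0.14 and over all clusters 0.06. Both comparisons with control XX share those 4 arrays, so they are not independent. Fgf9 did not pass when dKO XY 4 or control XX 2 was left out (adjusted p = 0.0558 and 0.0618). Fgfr2 did not pass when dKO XY 1, dKO XY 4 or control XX 2 was left out (adjusted p = 0.0501, 0.0558 and 0.0672), nor without both dKO XY 1 and 3 (adjusted p = 0.193). Neither gene passed with only the 8 arrays compared (adjusted p = 0.0535 for Fgf9 and 0.0774 for Fgfr2) or without eBayes moderation (0.0541 and 0.0645), and the differences themselves were the same in these fits.

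Etv5 (1.20 ± 0.26, adjusted p = 0.125), Dusp6 (1.02 ± 0.29, adjusted p = 0.298) and Spry4 (0.97 ± 0.18, adjusted p = 0.0564) were above control XX gonads on all 4 dKO XY arrays without passing. Groups did not overlap for 8 members that were higher and 2 that were lower in dKO XY, against 1.92% and 2.23% of all clusters. With signal contrast as a covariate these 3 genes passed as well (adjusted p = 0.0312, 0.0399 and 0.0183), and after quantile normalization Etv5 did (adjusted p = 0.00649). Spred1 (0.01, 95% interval −0.51 to 0.54), Spry2 (0.11, −0.44 to 0.66) and Spred2 (0.08, −0.40 to 0.56) had no difference that could be detected at this spread.

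**Figure D4:**
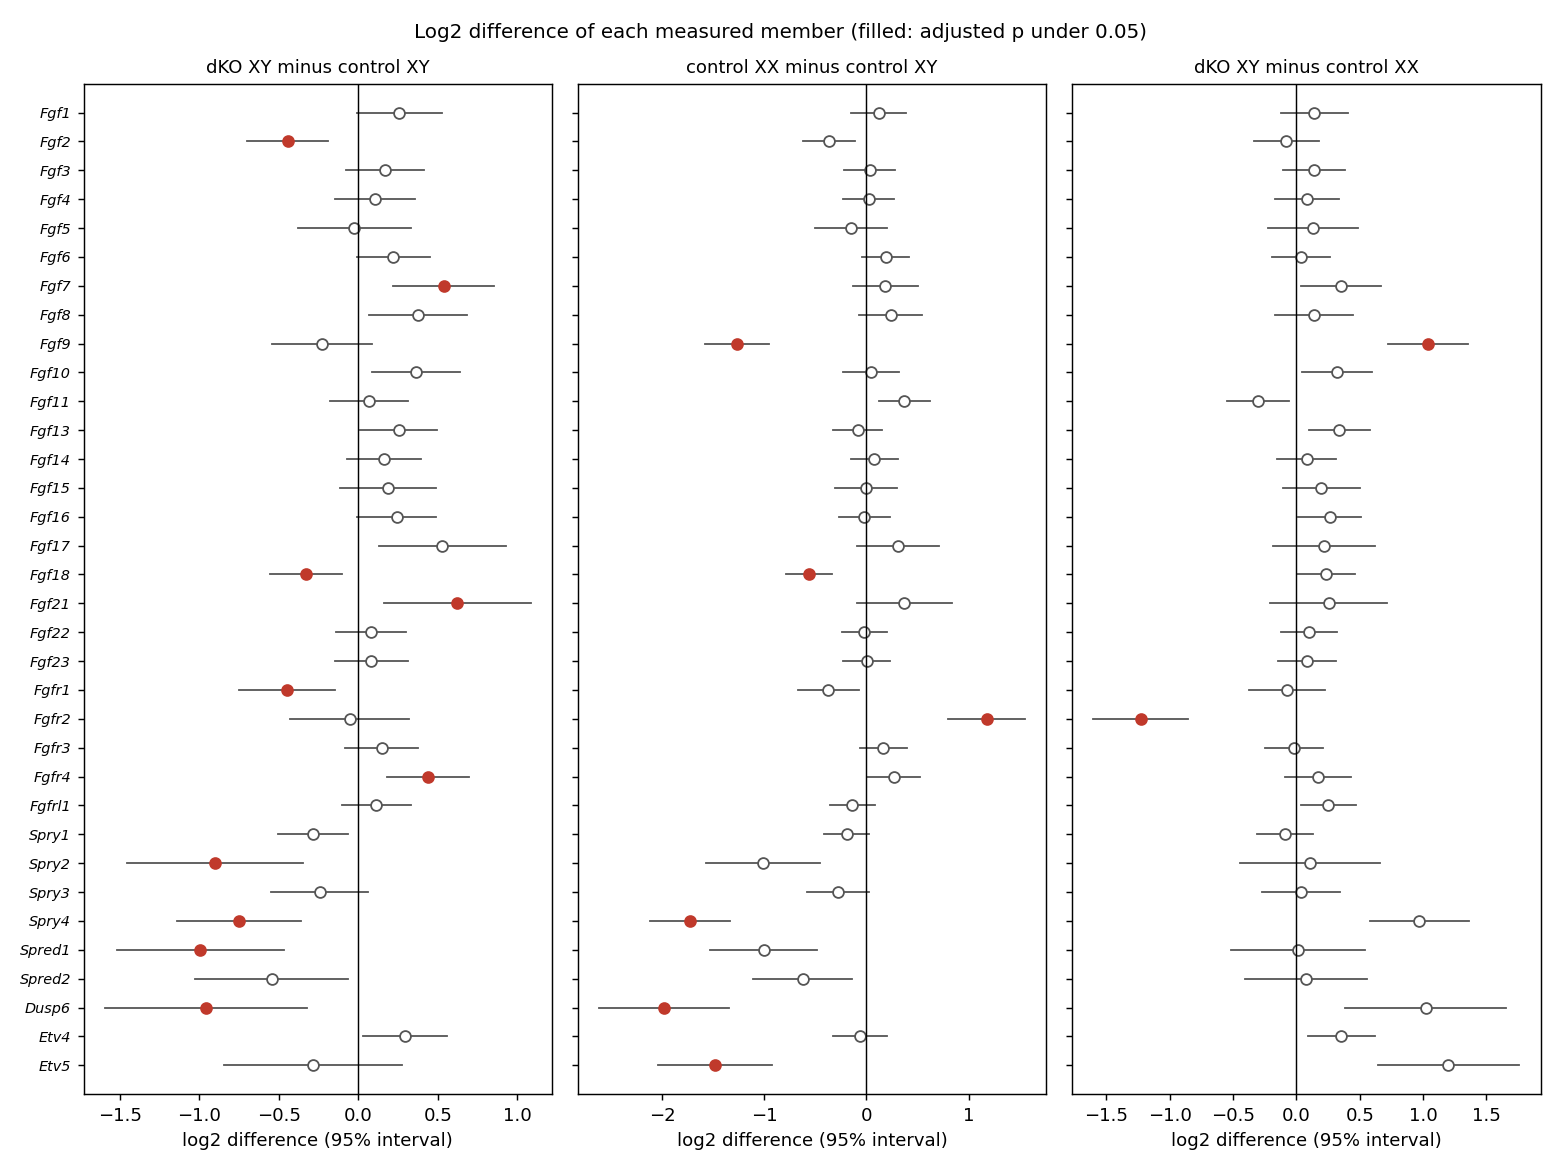
Log2 difference of each of the 34 measured members in the 3 comparisons, with 95% intervals from limma; filled points passed the test. Dusp6 (−1.98), Spry4 (−1.72), Etv5 (−1.48) and Fgf9 (−1.27) lie farthest to the left for control XX against control XY, and Fgfr2 (1.18) farthest to the right.

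The other 21 members passed in no comparison. Among them Fgf10, a ligand from mesenchyme, differed by 0.36 between dKO XY and control XY gonads (adjusted p = 0.0516), Fgf17 by 0.53 (adjusted p = 0.051) and Fgf8 by 0.37 (adjusted p = 0.0648). Fgf11 and Fgf13, intracellular homologues that are not secreted, were 0.37 (adjusted p = 0.117) and −0.09 (adjusted p = 0.64) apart between control XX and control XY gonads. Fgf1, Fgf3, Fgf4, Fgf5, Fgf6, Fgf14, Fgf15, Fgf22 and Fgf23 had group means from 4.50 to 6.78, and the 12 group means of Fgf4, Fgf6, Fgf22 and Fgf23 were 4.50 to 5.60. The genes named here were chosen after their values were seen.

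The cascade itself was followed by 4 lists of 49 further genes, of which 43 were measured. In the ovary against the control testis, 0 of the 43 passed with limma, with a median of −0.22 beside 0.12 over all clusters. At an unadjusted p under 0.05 there were 18 of the 43, beside 14329 of 65956 clusters. In dKO XY gonads 16 were lower and 2 higher than in control XY, against 9.8% and 16.7% of all clusters, with a median of −0.34 beside 0.17 over all clusters. The lower genes had mean levels above 36.1% (Flrt3) to 95.1% (Nras) of all clusters, with Ptpn11 above 89.2% and Gab1 above 89.9%. The 2 higher ones, Ier3 and Spred3, stood above 51.6% and 67.4%. The shares of all clusters were not matched for intensity, so they do not show whether the excess is particular to the cascade. Of 9 adaptors and exchange factors 6 fell, among them Ptpn11, the phosphatase SHP2 (−0.85 ± 0.22, adjusted p = 0.0258), Gab1, a docking protein (−0.84), and Sos1, which loads RAS with GTP (−0.80). Of 7 RAS, RAF, MEK and ERK genes 4 fell: Map3k4, a kinase that the mouse XY gonad needs for Sry expression (−0.91), Map3k1 (−0.91), Nras (−0.75) and Braf (−0.66).

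Of 18 other feedback and ERK-induced genes 5 fell, led by Nf1 (−1.0 ± 0.20, adjusted p = 0.0211) and Rasa1 (−0.96 ± 0.23, adjusted p = 0.0232). Both of these speed GTP hydrolysis by RAS. Ier2 (−0.71, limma adjusted p = 0.0485), Dusp7 (−0.58, adjusted p = 0.0383) and Il17rd (−0.35, adjusted p = 0.038) also fell. In the same list 2 rose, Ier3 (0.53) and Spred3 (0.44), and 11 did not pass. Among those 11 were the ERK-induced genes Dusp4 (−0.48, adjusted p = 0.101), Egr1 (−0.34, adjusted p = 0.0866) and Fos (0.27, adjusted p = 0.069). Of 9 co-receptors and carriers Flrt3 fell (−0.32). After quantile normalization 1 of the 43 passed (median −0.24), and with signal contrast as a covariate (median −0.07) or without dKO XY 1 and 3 (median −0.23) 0 passed, with 2 and 8 genes at an unadjusted p under 0.05. Between dKO XY and control XX gonads 0 of the 43 passed with limma, with a median of −0.05 beside 0.06 over all clusters. At an unadjusted p under 0.05 there were 7 of the 43, beside 6815 of 65956 clusters.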

How the data were processed

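RNA of 12 gonad samples was amplified, labelled with biotin and measured on Clariom D mouse arrays (Affymetrix), 1 per sample. The authors deposited log2 intensities of 72688 probe sets, with values from 2.79 to 19.93. The study's methods name RMA normalization, but which background correction and summary gave this table is not given in the sources used here, nor whether the study's own tests used it. The sample labels give E12.5, whereas the data statement of the study gives its later array stage for this series, and the labels were followed. The study reports control and dKO XY gonads at E12.5 as statistically indistinguishable at a 2-fold threshold. Here 2824 of 65956 clusters (4.28%) passed with limma and reached 2-fold between these groups. The reason for this was not tested.

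The values were used as deposited. Of 65956 transcript clusters, 30638 carry 1 symbol, 2176 several and 33142 none in the platform annotation. The 3 group means were fitted to all 12 arrays with limma 3.58.1 in R 4.3.3 (lmFit, eBayes), as a one-way model, with Benjamini-Hochberg adjustment over all clusters and a threshold of 0.05. Intervals are at 95%. The fit was tested on simulated data. Signal contrast was compared by an exact permutation test over 70 arrangements. Arrays carry no read depth, and their number limits the precision.

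Members past the threshold in any comparison, Fgf9 and Fgfr2 (13 genes) are given array by array. Of pathway lists up to 4 genes that passed are named, except that all that passed are named for the other feedback and ERK-induced genes. The members and lists, including the markers, were chosen with earlier results of these data known. Alternatives were quantile normalization, filters on dim clusters, fewer arrays, no moderation, a replicate block, signal contrast as a covariate, a 2-fold threshold and the mean over clusters of a symbol. Plots were drawn with matplotlib 3.10.9 in Python 3.11.15.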

Additional observations from a re-analysis of the deposited data

Results flagged for a closer look

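Among 102 sets of 4 arrays (34 members in 3 groups), 5 held an array whose gap to its nearest neighbour took more of the range than Dixon's 95% limit for 4 values allows, where chance gives about 1 in 20. Etv5 read 9.86 in dKO XY 2 (nearest 9.16) and 8.69 in control XX 4 (nearest 7.98). Without dKO XY 2 or control XX 4, Etv5 still passed between control XX and control XY gonads. Fgfr3 read 6.08 in dKO XY 2 (nearest 6.37). In control XX 3, Fgf21 read 6.80 (nearest 6.13) and Spred2 read 7.89 (nearest 8.48).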

How the results depend on the processing

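Of the 34 members, 10 passed between dKO XY and control XY gonads, 6 between control XX and control XY and 2 between dKO XY and control XX. In that order the counts were 1, 0 and 0 with only the 5574 clusters above the negative control limit, which removes most members, and 13, 6 and 2 with only clusters above the background probe sets, a filter chosen after seeing the data. The first count was 3 after quantile normalization (2 of them among the 10), 5 with only the 8 arrays compared, and 0 with signal contrast as a covariate, without dKO XY 1 and 3 or with a 2-fold threshold. The last was 0 with only the 8 arrays compared or without moderation, 5 with the covariate and 1 without dKO XY 1 and 3. Leaving out each array gave 0 to 16, 5 to 8 and 0 to 3.

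In the dKO XY against control XY comparison, Spry4 and Spred1 passed in 8 of 12 fits that left out 1 array, Fgf2 and Fgf7 in 7, Spry2, Dusp6, Fgfr1 and Fgfr4 in 6, Fgf18 in 4 and Fgf21 in 2.

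Samples with the same replicate number correlated in their deviations at −0.406 to 0.369 (12 pairs, mean 0.0145). Those with other numbers did so at −0.530 to 0.525 (36 pairs, mean −0.00497). No pairing by number was seen, but with this spread a weaker one could be missed, and the labels do not state one. The replicate block gave 8, 6 and 2 members, of which 7, 5 and 2 were among those above. Dusp6, Fgfr1 and Fgf18 were lost in the first comparison (adjusted p = 0.0555, 0.0541 and 0.0627) and Fgf18 in the second (0.0507), while Fgf17 (0.048) and Spred1 (0.0255) were gained.

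Signal contrast differences ranged from −1.20 to −0.746 for dKO XY against control XY and from −0.782 to −0.535 for control XX against control XY when 1 array was left out; the exact permutation p was 0.0286 without dKO XY 2 in the first and 0.0571 without control XY 3 or any control XX array in the second. The cause of these changes was not tested. The 4 arrays per group limit the precision, and most members lie below the brightest negative controls.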
